A study of Homo sapiens with 30 samples.

Results

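The UGT2B androgen-conjugating enzymes were followed as 6 genes, UGT2B15, UGT2B17, UGT2B10, UGT2B11, UGT2B28 and UGT2B7, taken by gene name from the 58735 genes in the count and FPKM tables (FPKM, fragments scaled by gene length and depth). The cells were LNCaP, an androgen-dependent line established from a human prostate cancer. All of them carried an shRNA against mTOR, a kinase that couples nutrients and growth signals to cell growth, and libraries of cells lacking it were not analysed here. Through an inducible system they received one of 5 constructs: wild-type mTOR (WT), mTOR sent out of the nucleus by an export signal (NES), mTOR sent into it by a localization signal (NLS), the NLS form made kinase-dead by the change D2357E (NLSKD), or an empty vector (EV). These are called lines here, and whether each was a clone or a pool is not given in the sources used here. After 48 h of androgen deprivation in medium with 2% charcoal-stripped serum, each line was given 10 nM R1881, a synthetic androgen, or the ethanol vehicle (0.1%) for 24 h. The 10 groups had 3 libraries each, 30 in all. Nothing in the labels says whether the libraries came from separate cultures, so the p-values measure no more than how much these samples varied, which may be technical variation.

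UDP-glucuronosyltransferases sit in the endoplasmic reticulum and transfer glucuronic acid from UDP-glucuronic acid to small lipophilic molecules, which are then exported. UGT2B15 and UGT2B17 are the members best known for conjugating testosterone, dihydrotestosterone and their metabolites, and in the prostate this reaction is a main route by which androgen is inactivated. Androgen is known to lower the expression of both in LNCaP cells. Of the other members, UGT2B28 also accepts steroids, UGT2B7 is a liver enzyme of broad specificity that acts on morphine and many other drugs, and UGT2B10 conjugates tertiary amines such as nicotine.

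The 6 genes lay within 758 kb of chromosome 4 (hg38), in the order UGT2B17 (68537184 to 68568527, minus strand), UGT2B15 (68646630 to 68670628, minus), UGT2B10 (68815993 to 68831196, plus), UGT2B7 (69051363 to 69112987, plus), UGT2B11 (69199951 to 69214731, minus) and UGT2B28 (69280499 to 69295050, plus). They form 2 pairs of near copies. The coding sequences of UGT2B17 and UGT2B15 differed at 55 of 1593 aligned bases (96.5% identical), and those of UGT2B28 and UGT2B11 at 47 of 1590 (97.0% identical). UGT2B10 was 94.8% identical to UGT2B11. Because a count depends on telling these copies apart, 90-base stretches that hold many of the differences are shown for each pair, 5′ to 3′ on the coding strand, with the bases that differ within the pair in capitals. The first pair spans chr4:68568040-68568129 (UGT2B17) and chr4:68670174-68670263 (UGT2B15), both on the minus strand, and differs at 11 positions; the second spans chr4:69280504-69280593 (UGT2B28, plus strand) and chr4:69214630-69214719 (UGT2B11, minus strand) and differs at 7 (GENCODE release 29 transcripts).
UGT2B17: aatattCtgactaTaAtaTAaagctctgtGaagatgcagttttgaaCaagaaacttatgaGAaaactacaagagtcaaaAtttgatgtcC
UGT2B15: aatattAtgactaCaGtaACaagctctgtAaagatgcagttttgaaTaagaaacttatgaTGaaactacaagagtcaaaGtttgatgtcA
UGT2B28: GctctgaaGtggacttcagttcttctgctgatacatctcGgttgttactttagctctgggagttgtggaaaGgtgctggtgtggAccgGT
UGT2B11: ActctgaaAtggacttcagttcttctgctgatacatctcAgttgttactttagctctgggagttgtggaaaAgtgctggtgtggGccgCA
Of the 1928 windows of 150 bases, the read length, in the UGT2B17 transcript, 94 (4.88%) also occurred in UGT2B15, and the reverse held for as many. UGT2B11 shared 27 of 1939 (1.39%) with the pseudogene UGT2B25P, and UGT2B28, UGT2B10 and UGT2B7 shared none. How reads with several matches were counted is not given in the sources used here, so a count of 1 member is uncertain by the reads it may have lost to or gained from its copy. Sums over a pair are given beside the members for that reason. Rows of 5 UGT2B pseudogenes held 0.395% of the members' counts.

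Promoter windows of RefSeq (GRCh38.p14) were present for 4 of the 6 members: UGT2B15, UGT2B10, UGT2B11 and UGT2B7. The UGT2B7 window (chr4:69096224-69096523, plus strand) lay inside the counted gene (69051363 to 69112987) and not before its start. The 250 bases before the gene start are shown for UGT2B15, where 2 of the searched motifs occurred. They are also shown for UGT2B10 and UGT2B11, whose upstream sequences were near copies. The fold changes of UGT2B10 and UGT2B11 with R1881 had opposite signs in all 5 lines, but in no line were both called. In the main fit UGT2B10 reached an adjusted p under 0.05 only in EV and UGT2B11 only in NES. In EV the log2 fold change of UGT2B11 ran from -0.033 to 1.41 over alternative settings. In UGT2B15 (chr4:68670653-68670902, minus strand) the capitals mark the match to the forkhead motif TGTTTAC, on the opposite strand 183 bases before the gene start, and the hormone response element core AGAACA 172 bases before it. In UGT2B10 (chr4:68815744-68815993, plus strand) and UGT2B11 (chr4:69214749-69214998, minus strand) the capitals mark the 25 of 254 alignment columns that differ (90.2% identical).
UGT2B15: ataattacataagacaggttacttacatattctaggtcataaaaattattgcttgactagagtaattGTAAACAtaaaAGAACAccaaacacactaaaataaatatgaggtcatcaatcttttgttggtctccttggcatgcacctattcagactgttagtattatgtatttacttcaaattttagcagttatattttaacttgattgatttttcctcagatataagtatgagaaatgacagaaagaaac
UGT2B10: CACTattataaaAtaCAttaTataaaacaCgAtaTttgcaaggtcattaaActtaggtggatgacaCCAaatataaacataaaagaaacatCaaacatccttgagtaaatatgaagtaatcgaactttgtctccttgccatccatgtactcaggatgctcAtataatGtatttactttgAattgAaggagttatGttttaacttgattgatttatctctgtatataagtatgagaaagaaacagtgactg
UGT2B11: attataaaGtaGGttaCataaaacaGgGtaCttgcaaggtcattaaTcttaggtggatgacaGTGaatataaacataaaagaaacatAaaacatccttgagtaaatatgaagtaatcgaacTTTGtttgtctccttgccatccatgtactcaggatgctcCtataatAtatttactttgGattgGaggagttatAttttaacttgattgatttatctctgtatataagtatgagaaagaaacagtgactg
Both strands of the 300-base windows were searched for the core AGAACA, the forkhead motif TGTTTAC, the short motif GTTAAT and the inverted pair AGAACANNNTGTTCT, and none occurred in the UGT2B10, UGT2B11 and UGT2B7 windows. The motifs are short: of 35116 promoter windows of the same length, 14.8% held AGAACA, 3.42% TGTTTAC and 6.88% GTTAAT, while 1 window held the inverted pair. A match of letters is a description of the sequence and was not tested as a binding site.

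Library totals ran from 21.4 to 61.8 M counts. Genes of the mitochondrial genome took 3.90% to 11.7% of the counts and more than 9% in 5 libraries (NES R1881 replicate 2, NLS R1881 replicate 2, NLS vehicle replicate 2, NLSKD vehicle replicate 2 and EV vehicle replicate 3). MTOR, the targeted gene, averaged 129 FPKM under R1881 in WT, 346 FPKM in NES, 85.1 FPKM in NLS and 87.8 FPKM in NLSKD, against 5.45 ± 0.787 FPKM in EV (SD, n = 3). Under vehicle it averaged 150, 430, 76.5 and 83.6 FPKM in the same rescue lines, against 2.10 ± 0.383 FPKM in EV. Reads of the constructs and of the cell's own MTOR cannot be told apart, and the rescue lines did not hold equal MTOR levels. The luminal markers were present (9 of 9; summed FPKM 1610 to 2763 under R1881 and 741 to 1255 under vehicle), and the androgen-induced genes KLK3, KLK2, TMPRSS2 and FKBP5 rose with R1881 in all 5 lines. The luminal marker FOLH1 fell with R1881 in all 5 lines (log2 fold change -1.37 in EV to -0.67 in NLS). TMPRSS2 was lower in every rescue line than in EV under both treatments (-2.09 to -1.13), and KLK2 in every case (-3.60 in WT under vehicle to -0.85 in NES under vehicle) but NES under R1881, where it was not called. KLK3 went the other way where it was called. It was higher than in EV under R1881 in WT (1.14), NES (1.60) and NLS (1.08), and under vehicle in NES (1.63). The part of these marker changes in the UGT2B results was not tested. Hepatocyte markers, the mark of a tissue with high UGT2B expression, summed to 0.215 to 1.69 FPKM under R1881 and 0.493 to 1.70 FPKM under vehicle, with ALB and APOB under 10 counts in every library. Of 3 basal markers, KRT5 and TP63 stayed under 10 counts in every library, while KRT14 rose with R1881 in each line (summed basal level 0.102 to 1.25 FPKM under R1881, 0 to 0.176 FPKM under vehicle). The part of the KRT14 change in the UGT2B results was not tested. In bulk RNA, fewer cells of a type and less RNA per cell cannot be told apart.

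All 6 members passed the filter on low counts. Adjusted p-values are those of edgeR's quasi-likelihood test over all 30 libraries, with Benjamini-Hochberg adjustment over the 18296 genes tested, and fold changes are log2 values ± SE. A difference was called at an adjusted p under 0.05. Comparisons with EV under the same treatment share the 3 EV libraries. Where libraries of 2 groups are said not to overlap, this describes their values. The share of all genes tested that did the same is not given here.

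UGT2B17 and UGT2B15 together made up most of the UGT2B FPKM in every library but EV R1881 replicate 1, and both were lowest in EV cells given R1881. The 6 genes summed to 319 ± 130 FPKM in WT, 103 ± 44.4 in NES, 243 ± 138 in NLS, 239 ± 51.5 in NLSKD and 23.9 ± 8.32 in EV under R1881. Under vehicle the sums were 988 ± 105, 401 ± 171, 450 ± 66.4, 475 ± 45.4 and 136 ± 47.4 in the same lines (mean ± SD, n = 3 each). In each of the 15 pairs of libraries that share a line and a replicate number the sum was lower with R1881 than with vehicle, with a median log2 ratio of -1.72.

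**Figure D1:**
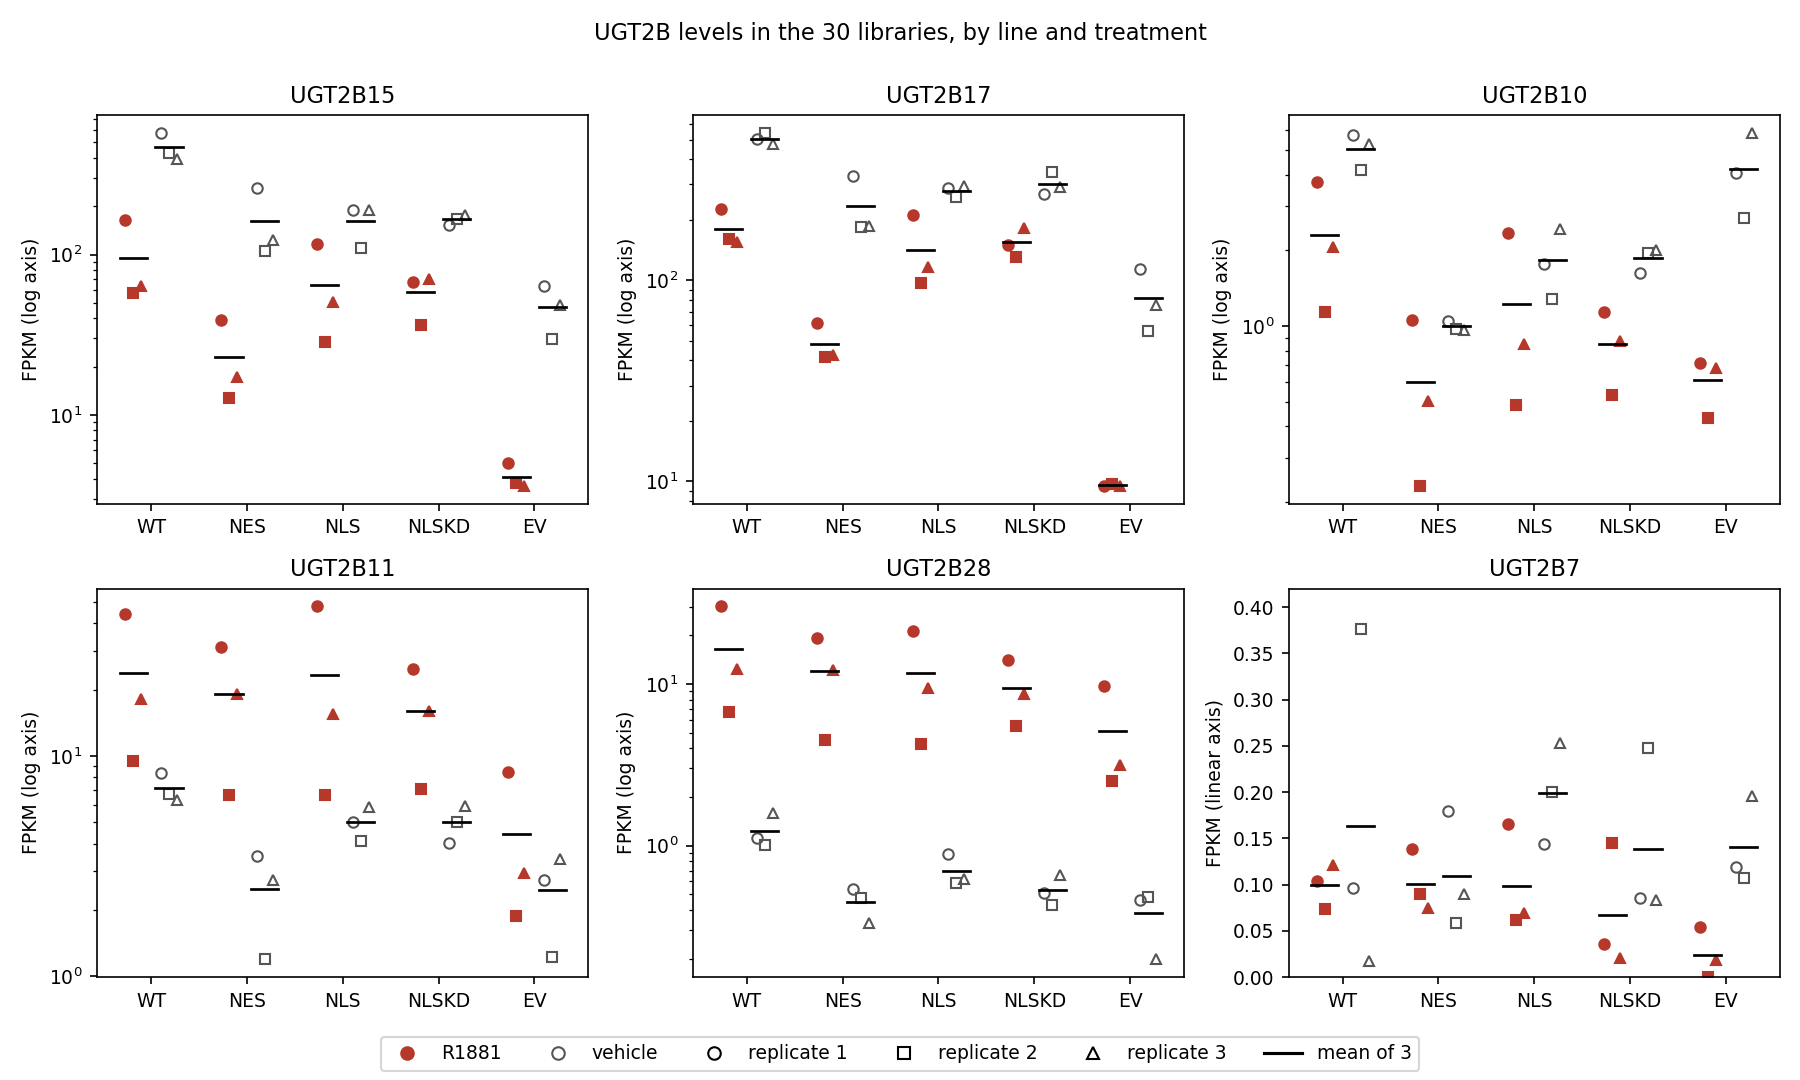
Deposited FPKM of the 6 UGT2B genes in each of the 30 libraries (y axis, log scale, linear for UGT2B7), by line (x axis) and treatment, R1881 filled and left, vehicle open and right; symbols are the replicates 1 to 3 (circle, square, triangle) and bars the means. UGT2B15 and UGT2B17 sit lowest in EV under R1881, and UGT2B28 sits higher under R1881 than under vehicle in all 5 lines.

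UGT2B17, which conjugates testosterone, dihydrotestosterone and androsterone, fell with R1881 in all 5 lines. Its FPKM under R1881 was 226, 161 and 155 in WT, against 503, 543 and 478 under vehicle (replicates 1, 2 and 3). In NES it was 61.5, 41.4 and 42.5 under R1881, against 332, 184 and 187 under vehicle. Treated and vehicle libraries of a line did not overlap for UGT2B17 in any of the 5 lines. In NLS the values were 211, 97.0 and 117 under R1881, against 287, 259 and 295 under vehicle, and in NLSKD 151, 131 and 182, against 270, 344 and 290. In EV they were 9.49, 9.74 and 9.50 under R1881, against 113, 55.7 and 75.4 under vehicle. The EV libraries under R1881 lay within a narrow range, below every one of the other 27 libraries.

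The change of UGT2B17 was 2.79-fold lower with R1881 in WT (log2 fold change -1.48 ± 0.26, adjusted p = 0.000383) and 4.75-fold lower in NES (-2.25 ± 0.27, adjusted p = 1.37e-06). It was 8.56-fold lower in EV (-3.10 ± 0.28, adjusted p = 1.31e-08). In NLS (-0.98 ± 0.26, adjusted p = 0.0245) and NLSKD (-0.94 ± 0.26, adjusted p = 0.0363) the fall was under 2-fold. These last calls rested on few libraries. The NLS call was lost when NLS R1881 replicate 2 or 3, or NLS vehicle replicate 1 or 3, was left out, and the NLSKD call when any library of that line other than NLSKD R1881 replicate 3 was left out (highest adjusted p 0.136 and 0.174). Leaving out the 5 libraries with more than 9% mitochondrial counts gave an adjusted p of 0.256 in NLS and 0.130 in NLSKD. The calls in WT, NES and EV kept an adjusted p of at most 0.00555 whichever library was left out.

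UGT2B15, which conjugates dihydrotestosterone and androstanediol, also had its largest fall in EV, with more spread between libraries than UGT2B17. Its FPKM under R1881 was 164, 57.3 and 63.9 in WT, against 575, 431 and 393 under vehicle. In NES it was 39.1, 12.8 and 17.2, against 261, 105 and 123 under vehicle, and in EV 5.03, 3.75 and 3.60, against 63.8, 29.8 and 48.2 under vehicle. UGT2B15 fell in these 3 lines, 4.91-fold in WT (-2.29 ± 0.48, adjusted p = 0.00221), 6.94-fold in NES (-2.79 ± 0.49, adjusted p = 0.000255) and 11.5-fold in EV (-3.53 ± 0.51, adjusted p = 2.01e-05). In NLS it had 116, 28.5 and 50.2 FPKM under R1881, against 190, 109 and 189 under vehicle, and the groups overlapped (-1.33 ± 0.46, adjusted p = 0.127). In NLSKD it had 67.9, 36.3 and 70.7 FPKM, against 153, 168 and 178 under vehicle, without overlap but also without a call (-1.49 ± 0.47, adjusted p = 0.0788); a fit blocked by replicate number called it (-1.59, adjusted p = 0.000304). Within replicate numbers UGT2B15 and UGT2B17 were each lower with R1881 in 15 of 15 pairs.

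UGT2B10 fell with R1881 in EV, where it had 0.715, 0.430 and 0.682 FPKM, against 4.05, 2.68 and 5.86 FPKM under vehicle (-2.79 ± 0.51, adjusted p = 0.000396). In WT it had 3.72, 1.13 and 2.06 FPKM under R1881, against 5.72, 4.18 and 5.28 under vehicle (-1.13 ± 0.46, adjusted p = 0.184, and -1.23, adjusted p = 0.0173, in a fit blocked by replicate number). In the other 3 lines its log2 fold change lay between -1.10 and -0.55 and was not called. It was lower with R1881 in 13 of 15 pairs of the same number. Per gene length its level was at most 5.86 FPKM in any library, below UGT2B15 and UGT2B17 in each.

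UGT2B28, which accepts androgens among other steroids, moved the other way and rose with R1881 in all 5 lines. Its FPKM was 30.3, 6.75 and 12.4 in WT under R1881, against 1.11, 1.01 and 1.59 under vehicle. In NES it was 19.2, 4.53 and 12.3, against 0.542, 0.476 and 0.333 under vehicle. Every R1881 library of UGT2B28 lay above every vehicle library, whatever the line. In NLS it was 21.3, 4.27 and 9.46, against 0.885, 0.590 and 0.624 under vehicle, and in NLSKD 14.0, 5.49 and 8.72, against 0.507, 0.431 and 0.656. In EV it was 9.71, 2.50 and 3.15, against 0.461, 0.482 and 0.198 under vehicle. The rise was 13.2-fold in WT (3.73 ± 0.62, adjusted p = 0.000161), 27.0-fold in NES (4.75 ± 0.67, adjusted p = 1.53e-05), 16.6-fold in NLS (4.05 ± 0.64, adjusted p = 0.000121), 17.8-fold in NLSKD (4.15 ± 0.65, adjusted p = 0.000119) and 13.3-fold in EV (3.73 ± 0.66, adjusted p = 0.0003). No single left-out library ended any of these 5 calls.

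UGT2B11, the near copy of UGT2B28, rose with R1881 in NES. The NES response was not called different from that of EV (2.13 ± 0.92 larger on the log2 scale). In NES it had 31.4, 6.67 and 19.1 FPKM under R1881, against 3.52, 1.19 and 2.73 under vehicle (2.97 ± 0.68, adjusted p = 0.00501). In WT it had 44.1, 9.52 and 18.1 FPKM, against 8.41, 6.74 and 6.34 under vehicle, and in NLS 47.9, 6.68 and 15.5, against 5.03, 4.12 and 5.85. The groups did not overlap in these lines, and the adjusted p was 0.127 in WT (1.73 ± 0.65) and 0.0535 in NLS (2.21 ± 0.66). In NLSKD the values were 24.8, 7.12 and 16.1 FPKM, against 4.04, 5.03 and 5.96 under vehicle (1.70 ± 0.65, adjusted p = 0.210), and in EV 8.46, 1.89 and 2.94, against 2.74, 1.22 and 3.41, which overlapped (0.83 ± 0.65, adjusted p = 0.585). In fits blocked by replicate number UGT2B11 was also called in WT (1.45, adjusted p = 0.0159) and NLSKD (1.41, adjusted p = 0.0305). It was higher with R1881 in 14 of 15 pairs of the same number, and the sum of UGT2B11 and UGT2B28 in 15 of 15.

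UGT2B7 was near the limit of detection, with 207 counts over the 30 libraries and 0 to 22 in any library (0 to 0.376 FPKM), and was called in none of the 5 lines. Of the 6 members, 3 were called in WT, 4 in NES, 2 in NLS, 2 in NLSKD and 4 in EV; over all genes tested, 6.48%, 8.25%, 4.44%, 4.08% and 9.11% were called in the same lines. For the sums over near copies, the log2 ratio of mean CPM (counts scaled to a common library size) of UGT2B15 and UGT2B17 was -1.81 in WT, -2.45 in NES, -1.10 in NLS, -1.11 in NLSKD and -3.24 in EV. That of UGT2B11 and UGT2B28 was 2.17, 3.35, 2.54, 2.13 and 1.60. The pairs thus moved in opposite directions also as sums, which reads exchanged within a pair do not change. If reads matching both copies were left uncounted, the sums lack them too.

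**Figure D2:**
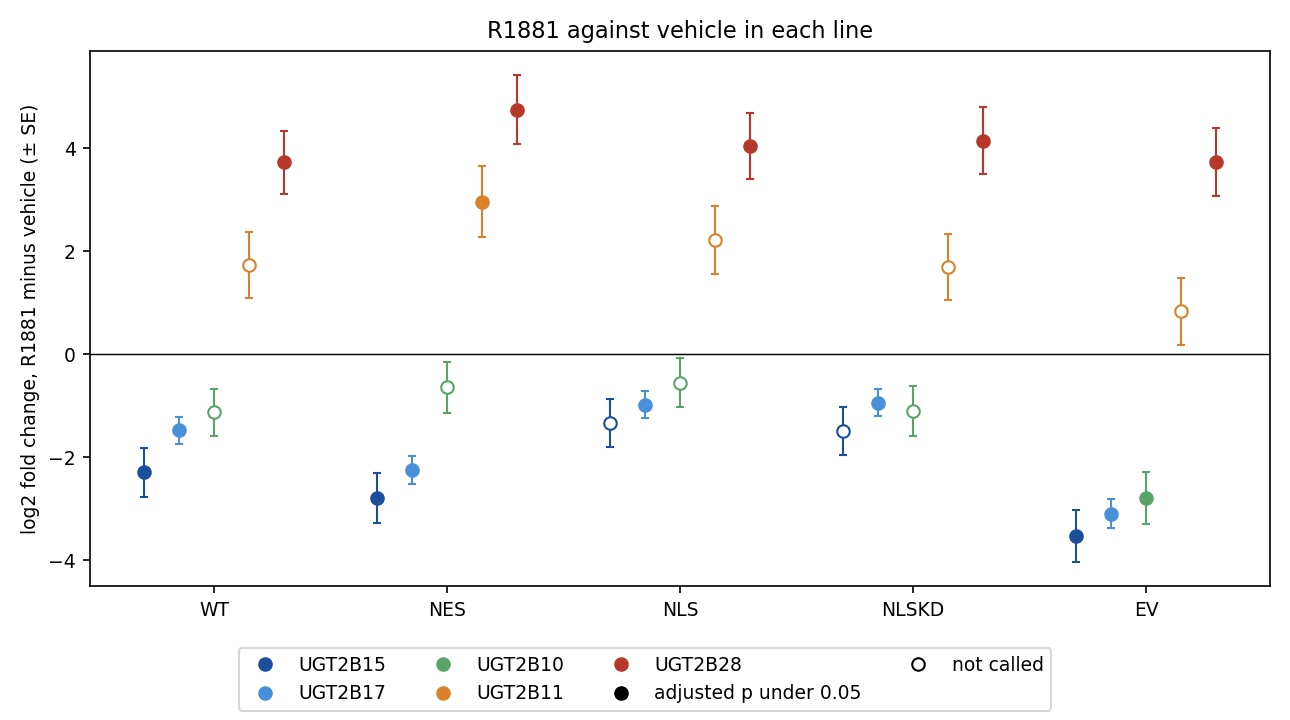
Log2 fold change of R1881 against vehicle (y axis, ± SE) for 5 UGT2B genes in each line (x axis); filled points have an adjusted p under 0.05. UGT2B28 lies between 3.73 and 4.75 and UGT2B17 between -3.10 and -0.94.

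Replicate 1 stood apart under R1881. It was the highest of the 3 libraries in 5 of 5 lines for UGT2B10, UGT2B11 and UGT2B28, in 4 of 5 for UGT2B15 and in 3 of 5 for UGT2B17. Its libraries included the deepest of the set, NES R1881 replicate 1 (61.8 M counts) and NLS R1881 replicate 1 (39.5 M counts). Replicate 1 under R1881 had 26.5 M counts in EV, 26.2 M in WT and 24.2 M in NLSKD. Its mitochondrial share was the lowest of the group in EV (3.90%), NES (4.63%) and NLSKD (4.31%), but not in WT or NLS. What the replicate numbers stand for is not given in the labels. The part of depth or of mitochondrial share in these values was not tested. Without replicate 1 of every group, UGT2B28 was still called in all 5 lines, and without replicate 3 of every group its call in EV was lost (3.72, adjusted p = 0.0551). Without replicate 3 of every group the calls of UGT2B17 in WT (adjusted p = 0.103), NLS (0.625) and NLSKD (0.384) were lost as well. So were those of UGT2B15 in WT (0.2004) and NES (0.0635), UGT2B10 in EV (0.116) and UGT2B11 in NES (0.217).

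The make-up of the UGT2B RNA changed with the treatment. UGT2B11 and UGT2B28 together held 11.6 ± 4.50% of the summed FPKM in WT, 28.1 ± 9.64% in NES, 12.8 ± 4.70% in NLS, 10.3 ± 4.19% in NLSKD and 36.3 ± 15.9% in EV under R1881. Under vehicle they held 0.851%, 0.742%, 1.26%, 1.17% and 2.11% in the same lines. The highest vehicle library, at 2.71%, lay below the lowest R1881 library, at 6.91%. In EV under R1881, replicate 1 had 54.3% of the sum in UGT2B11 and UGT2B28, and replicates 2 and 3 had 24.0% and 30.6%. UGT2B15 alone held 28.3 ± 5.92% in WT, 21.3 ± 3.76% in NES, 25.3 ± 4.18% in NLS, 23.9 ± 3.34% in NLSKD and 17.9 ± 2.72% in EV under R1881, against 46.9 ± 4.91%, 39.6 ± 3.79%, 35.6 ± 5.54%, 35.0 ± 2.56% and 34.6 ± 1.54% under vehicle. The shares are per gene length and add to 100% within a library, so a rise of 1 member lowers the share of the others.

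**Figure D3:**
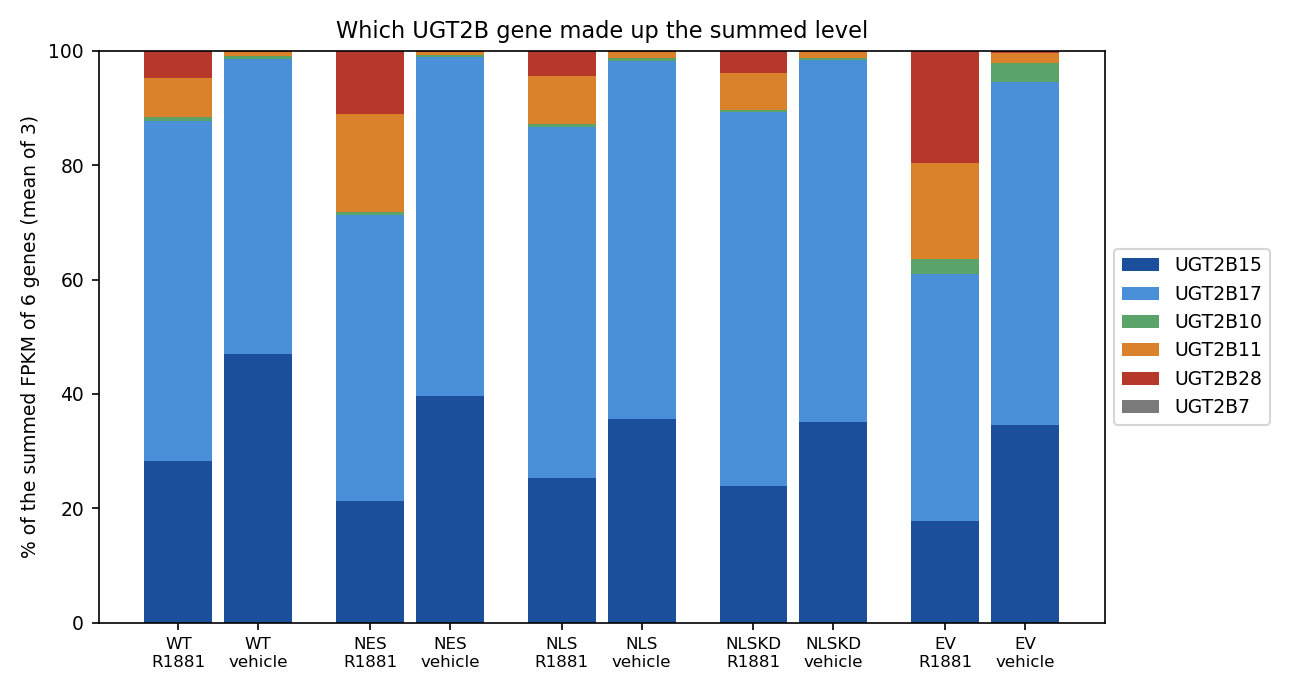
Mean share of each UGT2B gene in the summed FPKM of the 6 genes (y axis, %, n = 3 libraries a bar) by line, with R1881 left of vehicle. UGT2B11 and UGT2B28 together take 36.3% in EV under R1881 and 2.11% in EV under vehicle.

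UGT2B17 and UGT2B15 were higher in every rescue line than in EV, under both treatments. Under R1881, UGT2B17 averaged 181 ± 39.4 FPKM in WT, 48.5 ± 11.3 in NES, 142 ± 60.7 in NLS, 155 ± 25.6 in NLSKD and 9.58 ± 0.142 in EV. No rescue library came near the EV range, since the lowest, NES replicate 2, had 41.4 FPKM against at most 9.74 in EV. UGT2B17 was higher than in EV by 19.2-fold in WT (4.26 ± 0.30, adjusted p = 2.81e-10), 5.18-fold in NES (2.37 ± 0.27, adjusted p = 1.53e-06), 14.8-fold in NLS (3.89 ± 0.29, adjusted p = 3.56e-09), and by 16.4-fold in NLSKD (4.04 ± 0.29, adjusted p = 5.33e-09). By p-value it ranked 1 of the 18296 genes tested in NLSKD, 3 in NLS, 7 in WT and 57 in NES. UGT2B15 was 23.3-fold higher in WT (4.54 ± 0.53, adjusted p = 1.32e-06), 5.74-fold in NES (2.52 ± 0.49, adjusted p = 0.00141), 15.7-fold in NLS (3.97 ± 0.52, adjusted p = 1.19e-05), and by 14.4-fold in NLSKD (3.85 ± 0.52, adjusted p = 2.25e-05). None of these 8 calls was lost when a single library was left out, and without replicate 3 of every group the UGT2B15 call in NES was (adjusted p = 0.136).

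UGT2B11 was also called higher than in EV under R1881 in WT (2.45 ± 0.66, adjusted p = 0.0189), NES (2.15 ± 0.66, adjusted p = 0.0468) and NLS (5.26-fold, adjusted p = 0.0272). Its libraries overlapped those of EV in NES and NLS and not in WT. In NLSKD it was not called (1.88 ± 0.65, adjusted p = 0.0969), though a fit blocked by replicate number called it (1.94, adjusted p = 0.00191). The UGT2B11 calls were lost without EV R1881 replicate 2 or 3 or without replicate 1 of the rescue line, and in NES also without NES R1881 replicate 3 (adjusted p up to 0.235 over the single libraries left out). The NES call was also lost with DESeq2 size factors (adjusted p = 0.0541), in a fit of those 2 groups alone (0.0588) and in limma fits of FPKM (0.0603 to 0.0853), and the NLS call in the fit of 2 groups (0.229) and in limma fits of log2(FPKM + 1) (0.0543 and 0.0681). UGT2B10 was higher in WT (1.93 ± 0.50, adjusted p = 0.0134), a call lost without WT R1881 replicate 1 or EV R1881 replicate 2 (adjusted p up to 0.118). UGT2B28 was not called, with log2 fold changes of 1.70, 1.27, 1.19 and 0.90 in WT, NES, NLS and NLSKD and adjusted p-values of 0.0607, 0.206, 0.259 and 0.470. In WT it was called under 7 of 18 alternative settings. These included DESeq2's Wald test (1.68, adjusted p = 0.0281) and a fit without the libraries of high mitochondrial share (1.70, adjusted p = 0.0326). In NLS a fit blocked by replicate number called it (1.18, adjusted p = 0.0271). UGT2B11 and UGT2B28 were higher than in EV in 12 of 12 pairs of the same number under R1881. These pairs reuse the 3 EV libraries, so they are not independent. In WT and NES against EV the numbers did not pair, with a lowest correlation of 0.074 and 0.035. The share of all genes tested that did the same is not given here. The test called 4 of 6 members for WT, 3 each for NES and NLS, and 2 for NLSKD, where 8.49%, 6.96%, 6.23% and 5.75% of all genes tested were called.

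Under vehicle, UGT2B17 averaged 508 ± 32.7 FPKM in WT, 234 ± 85.0 in NES, 280 ± 19.0 in NLS, 301 ± 38.5 in NLSKD and 81.5 ± 29.3 in EV, and no rescue library overlapped the EV libraries. UGT2B17 was 6.26-fold higher than in EV in WT (2.65 ± 0.28, adjusted p = 1.82e-07), 2.87-fold in NES (1.52 ± 0.26, adjusted p = 0.000442), 3.42-fold in NLS (1.77 ± 0.27, adjusted p = 7.97e-05), and by 3.68-fold in NLSKD (1.88 ± 0.27, adjusted p = 5.27e-05). None of these was lost with a single library left out. The NES call was lost in a fit of those 2 groups alone (adjusted p = 0.0523), and without replicate 3 of every group those of NES (0.0838), NLS (0.0746) and NLSKD (0.0556) were lost. UGT2B15 was 9.91-fold higher in WT (3.31 ± 0.50, adjusted p = 5.26e-05), again with no library deciding the call. In NES (1.79 ± 0.47, adjusted p = 0.0228), NLS (1.78 ± 0.47, adjusted p = 0.0247) and NLSKD (1.80 ± 0.47, adjusted p = 0.0255) the UGT2B15 calls were lost without EV vehicle replicate 2 or 3. They were also lost without NES vehicle replicate 1, NLS vehicle replicate 1 or 3, and NLSKD vehicle replicate 2 or 3, each in its own line (adjusted p up to 0.153). Without replicate 3 of every group all of these UGT2B15 calls were lost (0.341 in NES, 0.525 in NLS and 0.512 in NLSKD). The same held without replicate 2 (0.0630, 0.0667 and 0.121). The NES call was also lost in a fit of those 2 groups alone (0.0563). That of NLSKD was lost without the libraries of high mitochondrial share (0.0889).

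UGT2B10 did not follow UGT2B15 and UGT2B17 under vehicle. It had 1.05, 0.972 and 0.969 FPKM in NES, against 4.05, 2.68 and 5.86 FPKM in EV, a fall of 4.22-fold (-2.08 ± 0.49, adjusted p = 0.00916) that was lost without NES vehicle replicate 3 or EV vehicle replicate 3 (adjusted p up to 0.0631). In NLS it had 1.76, 1.28 and 2.43 FPKM, below each EV library but not called (-1.21 ± 0.47, adjusted p = 0.177), and a fit blocked by replicate number called it (-1.20, adjusted p = 0.0281). In WT its 5.72, 4.18 and 5.28 FPKM overlapped the EV values. UGT2B11, UGT2B28 and UGT2B7 were called in none of the rescue lines under vehicle. The test called 3 of 6 members for NES and 2 each for WT, NLS and NLSKD. Over all genes tested in WT, NES, NLS and NLSKD, 6.71%, 4.94%, 4.57% and 4.01% were called.

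**Figure D4:**
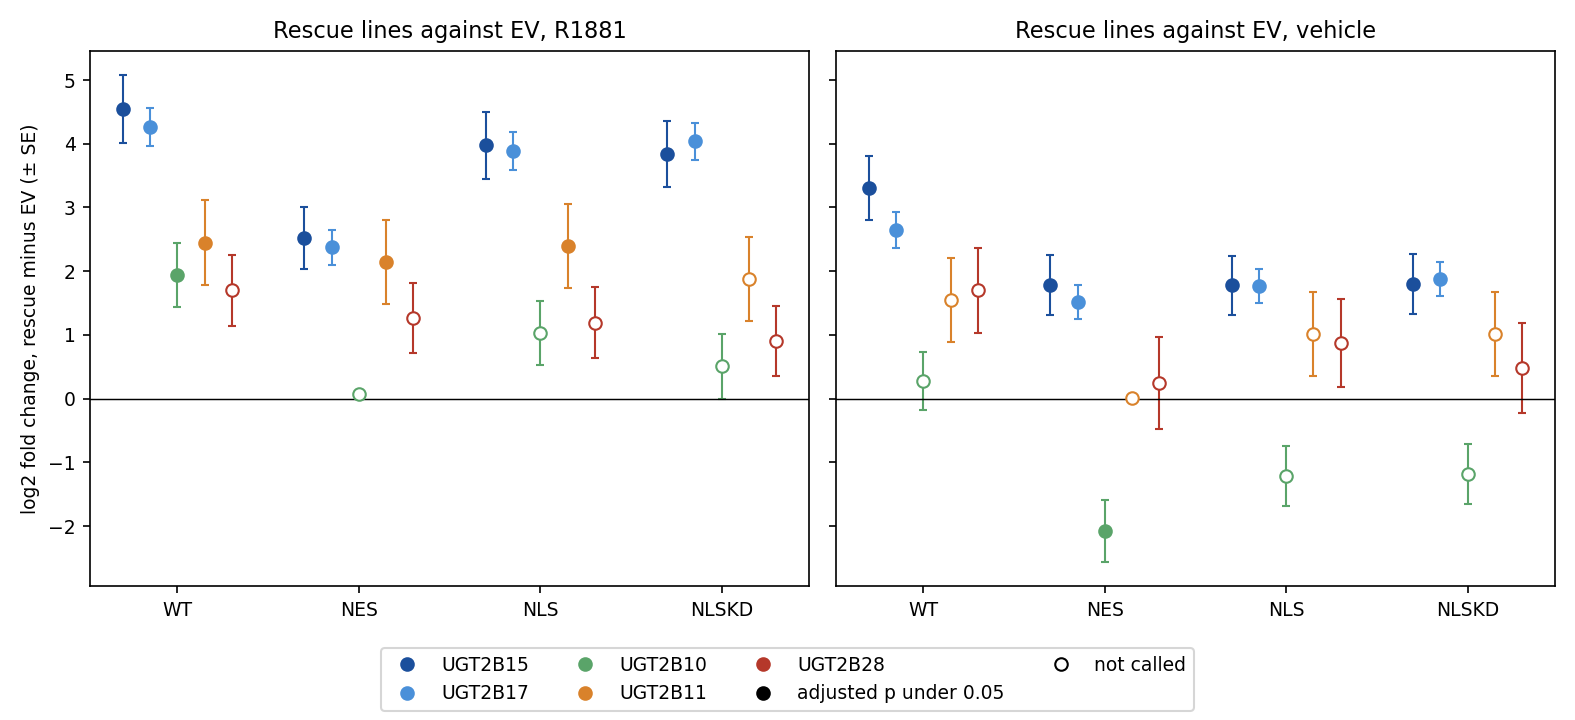
Log2 fold change of each rescue line against EV (y axis, ± SE) for 5 UGT2B genes under R1881 (left panel) and vehicle (right panel); filled points have an adjusted p under 0.05, points under 0.1 have no bar, and all 4 comparisons of a panel share the EV libraries. UGT2B15 and UGT2B17 lie above 0 in every comparison, and UGT2B10 in NES under vehicle lies at -2.08.

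Ordered by mean FPKM over the 10 groups, UGT2B17 ran from WT vehicle (508 ± 32.7) through NLSKD vehicle (301 ± 38.5), NLS vehicle (280 ± 19.0), NES vehicle (234 ± 85.0), WT R1881 (181 ± 39.4), NLSKD R1881 (155 ± 25.6), NLS R1881 (142 ± 60.7), EV vehicle (81.5 ± 29.3) and NES R1881 (48.5 ± 11.3) to EV R1881 (9.58 ± 0.142). Only the top group and the bottom group were separated from their neighbour without overlap of libraries; the 8 groups between them overlapped step by step. UGT2B15 had the same top (WT vehicle, 466 ± 96.0 FPKM) and bottom (EV R1881, 4.12 ± 0.787 FPKM), also without overlap with the next group. For UGT2B28 the 5 R1881 groups came first, from WT (16.5 ± 12.3) to EV (5.12 ± 3.99), then WT vehicle (1.24 ± 0.307) apart from the groups on either side, then the remaining vehicle groups, from NLS to EV (0.380 ± 0.158). UGT2B11 had the 4 R1881 rescue groups on top, from WT (23.9 ± 18.0) to NLSKD (16.0 ± 8.84), and EV vehicle at the bottom (2.46 ± 1.12). UGT2B10 was highest in WT vehicle (5.06 ± 0.792) and EV vehicle (4.20 ± 1.59) and lowest in NES R1881 (0.599 ± 0.423), and all of its neighbours overlapped.

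Comparisons between rescue lines set mTOR in different parts of the cell, and with and without kinase activity, beside each other. MTOR RNA differed as well. It was called lower in NLS than in NES (-2.05 under R1881 and -2.50 under vehicle). In NES it was called higher than in WT (1.42 and 1.51). The part of MTOR level in the UGT2B differences was not tested. NLS had more UGT2B17 than NES under R1881, with 211, 97.0 and 117 FPKM in NLS, against 61.5, 41.4 and 42.5 FPKM in NES. The libraries did not overlap, and the difference of 2.86-fold was called (1.52 ± 0.26, adjusted p = 0.00164) whichever library was left out, but not in a fit of these 2 groups alone (adjusted p = 0.218). It was the only member called of 6, where 1.37% of all genes tested were called. UGT2B15 had overlapping values (1.45 ± 0.47, adjusted p = 0.158) and was called in a fit blocked by replicate number (1.42, adjusted p = 0.00303). Under vehicle none of the 6 differed between NLS and NES by the test (1.03% of all genes tested were called), UGT2B17 at 0.25 ± 0.26 and UGT2B15 at -0.01.

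NES had less UGT2B17 and UGT2B15 than WT under R1881. UGT2B17 had 61.5, 41.4 and 42.5 FPKM in NES, against 226, 161 and 155 FPKM in WT (-1.89 ± 0.27, adjusted p = 0.00014). UGT2B15 had 39.1, 12.8 and 17.2 FPKM in NES, against 164, 57.3 and 63.9 FPKM in WT (-2.02 ± 0.47, adjusted p = 0.0239), a call lost without NES R1881 replicate 2 or 3 or WT R1881 replicate 1 (adjusted p up to 0.297). Both genes were lower in each NES library than in any WT library. UGT2B10 was not called (-1.86 ± 0.49, adjusted p = 0.0525), but was in a fit blocked by replicate number (-1.88, adjusted p = 0.00262). The called members were 2 of 6, against 1.45% of all genes tested.

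Under vehicle, UGT2B17 had 332, 184 and 187 FPKM in NES, against 503, 543 and 478 FPKM in WT (-1.12 ± 0.26, adjusted p = 0.0266), and UGT2B10 had 1.05, 0.972 and 0.969 FPKM in NES, against 5.72, 4.18 and 5.28 FPKM in WT (-2.35 ± 0.49, adjusted p = 0.0101). The UGT2B17 call was lost when any 1 library other than NES vehicle replicate 1 was left out (adjusted p up to 0.209), and the UGT2B10 call without NES vehicle replicate 2 or 3 (up to 0.0684). In a fit blocked by replicate number UGT2B15 (-1.64, adjusted p = 0.000669) and UGT2B11 (-1.72, adjusted p = 0.0200) were also called lower in NES. By the test without the block 2 of 6 members were called, against 1.2% of all genes tested.

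No member was called between NLSKD and NLS. Under R1881, UGT2B17 had 151, 131 and 182 FPKM in NLSKD, against 211, 97.0 and 117 FPKM in NLS, and UGT2B15 had 67.9, 36.3 and 70.7 FPKM in NLSKD, against 116, 28.5 and 50.2 FPKM in NLS. Coded as NLS minus NLSKD, the log2 fold change was -0.15 ± 0.26 for UGT2B17, 0.13 ± 0.46 for UGT2B15 and 0.29 ± 0.54 for UGT2B28. Under vehicle it was -0.10 ± 0.26 for UGT2B17 and 0.39 ± 0.67 for UGT2B28. Over all genes tested, 0.00547% were called under R1881 and 0.0109% under vehicle (1 and 2 genes). A missed threshold does not show equal levels. None of the 6 was called between NLS and WT (0.465% of all genes tested under R1881 and 0.481% under vehicle); the UGT2B17 values were -0.38 ± 0.26 under R1881 and -0.87 ± 0.26 under vehicle. Under vehicle the values of UGT2B15 (-1.53 ± 0.47, adjusted p = 0.173) and UGT2B10 (-1.48 ± 0.47, adjusted p = 0.204) were also lower in NLS and not called. UGT2B15 was called in a fit of those 2 groups alone (-1.49, adjusted p = 0.0275), and UGT2B15, UGT2B17 and UGT2B10 were all called without a filter on low counts (adjusted p = 6.31e-08, 0.0188 and 0.00789).

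Whether the fall of UGT2B17 with R1881 differed between lines was tested as a difference of responses. It was smaller in NLS than in EV by 2.11 ± 0.37 on the log2 scale (adjusted p = 0.0367) and smaller in NLSKD than in EV by 2.16 ± 0.37 (adjusted p = 0.0406). In WT (1.62 ± 0.37, adjusted p = 0.212) and NES (0.85 ± 0.37) the difference from EV was not called. The WT difference was called by DESeq2's Wald test (1.60, adjusted p = 0.0334) and without a filter on low counts (1.61, adjusted p = 0.00183). Whether the NLS or NLSKD response differed from that of WT was not tested. UGT2B17 was 1 of 3 genes called in NLS and 1 of 3 in NLSKD, 0.0164% of the genes tested in each; the others were ACKR3, a chemokine receptor gene, and CRISPLD2. In WT 8 genes were called (0.0437%) and in NES 0 by edgeR, with 490 at an unadjusted p under 0.05. These 2 calls were not robust. Each was lost in 10 of 12 cases when 1 of the 12 libraries was left out (adjusted p up to 0.222 in NLS and 0.256 in NLSKD), all but those of EV vehicle replicate 2 and of replicate 2 of the line under R1881. The differences in UGT2B15 (2.20 ± 0.66 in NLS, 2.04 ± 0.66 in NLSKD) and UGT2B10 (2.24 ± 0.69 and 1.69 ± 0.69) were of like size, with larger errors, and were not called.

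Genes whose group means followed those of a member most closely were sought among 13482 tested protein-coding genes, by Pearson's r of mean log2 CPM over the 10 groups. For UGT2B17 these were MMP16 (r = 0.998), CMBL (0.990) and SLC16A7 (0.987), and over the single 30 libraries r was 0.971, 0.964 and 0.945. For UGT2B15 they were FAM19A2 (0.989), CMBL (0.985) and SLC22A10 (0.983). UGT2B28 was followed by LAMA1 (0.992), CADPS2 (0.988) and TBC1D1 (0.988). For UGT2B10 (PDZD2, ZNRF3 and CTSC, r of 0.954 to 0.963) and UGT2B11 (PTMA, CASC10 and TSPYL2, 0.949 to 0.966) the likeness was weaker over the 30 libraries, at 0.730 to 0.806 and 0.227 to 0.687. The nearest for UGT2B7 (ABCD4, SPDYE6 and POLL) had r of at most 0.377 over the 30 libraries. Between members, r over the 10 group means was 0.985 for UGT2B15 and UGT2B17, 0.878 for UGT2B11 and UGT2B28, and -0.45 for UGT2B15 and UGT2B28. The 10 points share libraries, lines and treatments, so these values describe likeness of pattern only.

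Other genes of the pathway were counted against the shares of all genes tested that were called, 4.08% (NLSKD) to 9.11% (EV) with R1881, 5.75% (NLSKD) to 8.49% (WT) against EV under R1881, and 4.01% (NLSKD) to 6.71% (WT) against EV under vehicle. Of 16 other UGT genes, 6 were tested. UGT8, which makes galactosylceramide, fell with R1881 in WT (-1.62 ± 0.39, adjusted p = 0.00875), NES (-1.50 ± 0.37, adjusted p = 0.008) and EV (-1.40 ± 0.36, adjusted p = 0.0126), and UGT1A6, named after its values were seen and under 1 CPM on average, was called higher in EV, where the vehicle libraries had 0 counts. Set against EV under R1881, the 6 genes included 3 lower ones in each of WT, NES and NLS and 1 in NLSKD, and under vehicle 3, 2, 3 and 3, with none higher. UGT8 was among them, 2.00 ± 0.39 lower on the log2 scale in WT and 2.17 ± 0.40 lower in NLS under R1881, the direction opposite to that of UGT2B15 and UGT2B17. UGT2B4 was lower in NES under R1881, with 0.290 to 1.11 CPM in NES, against 1.53 to 4.36 CPM in EV. The others, named after their values were seen, were UGT1A8 and UGT3A1, which had 0 counts in every rescue library and averaged 0.536 and 0.470 CPM in EV under R1881 and 1.14 and 0.356 CPM in EV under vehicle.

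Of 8 genes of UDP-glucuronic acid supply, 7 were tested. PGM2, a sugar phosphomutase, rose with R1881 in WT (1.25 ± 0.32), NES (1.13 ± 0.32) and NLS (1.21 ± 0.32), with adjusted p-values of 0.0149 to 0.0262, and PGM1 was lower in WT than in EV (-1.04 ± 0.17 under R1881 and -1.19 ± 0.17 under vehicle). UGDH, which makes UDP-glucuronic acid, was not called in any line with R1881 or against EV. Of 30 androgen metabolism genes 19 were tested. Beside 4.08% to 9.11% of all genes tested that were called with R1881, 2 of the 19 rose in each line and none fell. They were CYP11A1, named after its values were seen and under 1 CPM on average, in all 5 lines, with HSD17B4 in WT (0.60 ± 0.15), NLS (0.55 ± 0.15), NLSKD (0.69 ± 0.15) and EV (0.63 ± 0.15) and HSD17B11 in NES (1.29 ± 0.37). In WT, HSD17B12 was higher than in EV under R1881 (1.06 ± 0.29) and vehicle (1.02 ± 0.29), and CYP3A5 under vehicle (1.65 ± 0.40).

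Of 10 genes of conjugate transport 5 were tested. The exporters ABCC1 (1.25 to 1.73 on the log2 scale) and ABCC4 (1.55 to 2.38) rose with R1881 in all 5 lines, and ABCG2, named after its values were seen and under 1 CPM on average, fell in WT, NES, NLSKD and EV. That made 3 of 5 called in these 4 lines and 2 of 5 in NLS, beside 4.08% to 9.11% of all genes tested. None of the 5 was called against EV.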

How the data were processed

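RNA of the 30 LNCaP libraries (RNeasy, NEBNext Ultra II) was sequenced as paired 150-base reads. The authors deposited a table of raw read counts per gene and a table of FPKM values per gene for the same 58735 genes. The submitters' processing notes name HISAT2 2.0.5, featureCounts 1.5.0-p3 and hg38, in no stated role. The strand setting, and the rule for a read matching more than 1 place, were not stated in the sources used. The gene identifiers matched GENCODE release 29, and every library's FPKM used 1 denominator over all genes. FPKM served for levels and counts for tests.

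Counts were filtered (filterByExpr), scaled by TMM and fitted in 1 model of the 10 groups with edgeR 4.0.16 quasi-likelihood tests (R 4.3.3). Benjamini-Hochberg adjustment ran over 18296 genes in each of 25 comparisons. The procedure was tested on simulated data with changes placed in EV R1881. It called 36.4% of changes of 1 on the log2 scale and 83.8% of changes of 2. False calls numbered 10 in that comparison and 0 in an unchanged one. Standard errors were not computed for log2 fold changes smaller than 0.1. Library totals of 21.4 to 61.8 M counts set the precision. No libraries of a group agreed within sampling noise (lowest chi-square per degree of freedom 12.7).

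Same-numbered samples were taken as pairs in a comparison where the deviations of every pair correlated above 0.1, which held in 12 of 21 comparisons, from the data and not from the labels. Blocked values stand beside a result where this held and the call changed.

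Members and gene lists were chosen with earlier results of these data known. Named were all members, MTOR, for each related list up to 4 called genes of lowest adjusted p with a mean of at least 1 CPM in each of 5 questions, and the 3 protein-coding genes most like each member. UGT2B4 was given by its range. Alternatives used DESeq2 1.42.0, limma 3.58.1 on log2(FPKM + 1) and log2(FPKM + 0.1), other filters, and libraries left out. Sequences were compared with Biopython 1.88. Results of some regulator genes are not reported here.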

Additional observations from a re-analysis of the deposited data

Results flagged for a closer look

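The response of UGT2B17 to R1881 differed between lines by a test of the difference itself. It was 2.11 larger (less negative) on the log2 scale in NLS than in EV, and 2.16 larger in NLSKD than in EV. UGT2B17 was lower with R1881 than with vehicle in 3 of 3 pairs of the same number in each of these lines. Both differences were lost in a fit of the compared groups alone (adjusted p = 0.99997 in NLS and 0.0734 in NLSKD) and without the libraries above 9% mitochondrial counts (0.142 and 0.100), while DESeq2's Wald test gave 0.000447 and 0.00049. That test also called the difference of WT from EV (1.60, adjusted p = 0.0334). UGT2B17 in EV under R1881 had the lowest level of any group, 9.58 ± 0.142 FPKM (SD, n = 3).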

How the results depend on the processing

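Of 150 member tests 43 were called. Their 786 values under the alternatives all kept their sign, and 659 were still called. Over all tests 137 of 2823 alternative values had another sign, none of them in a called test. The member calls numbered 15 of 30 for the androgen response, 12 of 24 against EV under R1881, 9 of 24 against EV under vehicle, 5 of 48 between rescue lines and 2 of 24 for differences of responses. Leaving out single libraries gave 14 to 17, 8 to 15, 5 to 9, 3 to 7 and 0 to 2 in the same order; the count of 5 against EV under vehicle came without EV vehicle replicate 3, and that of 3 between rescue lines without NES vehicle replicate 2 or 3. The share of all genes called is not given for the alternatives, here or below. Whether a setting changed the calls of members more than those of other genes was not tested.

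Without a filter on low counts, which raised the genes tested to 36420, calls numbered 14 against EV under vehicle, 14 between rescue lines and 7 for differences of responses. DESeq2's Wald test gave 8 between rescue lines. Fits of the compared groups alone, with fewer samples, gave 3 between rescue lines and 0 for differences of responses. DESeq2 size factors gave 1 difference of responses, and leaving out the libraries of high mitochondrial share 0. Beyond these constructions the cause was not tested.

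Settings chosen after seeing the data left out 1 replicate number in every group. Without replicate 3 calls fell to 7 for the androgen response, 7 against EV under R1881, 2 under vehicle and 0 between rescue lines; without replicate 2 they were 3 between rescue lines. Differences of responses gave 0 whichever number was left out.

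With a replicate block the calls were 21 for the androgen response, 16 against EV under R1881, 12 under vehicle, 12 between rescue lines and 4 for differences of responses. These counts include comparisons in which the numbers did not pair. Of 135 same-number pairs 100 correlated above 0.1, and 22 of 30 libraries were closest to their own number, as a hint from the data. Summing near copies changed the R1881 ratio of UGT2B28 by up to 2.14 on the log2 scale, with its direction still upward. The largest change over the 5 lines was 0.77 for UGT2B11, 0.48 for UGT2B15 and 0.33 for UGT2B17. FPKM in place of CPM moved the R1881 ratio of a single member by at most 0.0308, and that of the sum of UGT2B11 and UGT2B28 in EV to 1.75, against 1.60. Depth limits UGT2B7, with at most 22 counts a library.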
